A study of Homo sapiens with 9 samples.

Results

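The 34 genes described here carry fatty acids from uptake to oxidation and on to ketone bodies. They were chosen by gene name, from a list that includes fatty acid transporters and acyl-CoA synthetases, the carnitine shuttle, the enzymes of mitochondrial and peroxisomal beta-oxidation, the electron transfer proteins, 2 enzymes of ketone body metabolism and 2 acyl-CoA thioesterases. All 34 names were found among the 58735 genes of the files. By the location of their products, 19 are mitochondrial, 4 are peroxisomal, 2 (CRAT and ECI2) are found in both organelles and 9 belong to the plasma membrane, the endoplasmic reticulum, the cytosol or the outer faces of organelles.

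Poly(A) RNA was sequenced from 3 groups of Huh-7 cells, a human hepatoma line, with 3 biological replicate libraries in each group. The control group was wild type. Ako-3 cells carried a CRISPR/Cas9 knockout of APOB, which encodes the structural protein of very low density lipoprotein, and Mko-3 cells carried a knockout of MTTP, which encodes the transfer protein that loads lipid onto apoB. All groups were grown in medium with fetal bovine serum, washed near confluence and kept overnight without serum before RNA was isolated. Each knockout was represented by 1 clone, so the effect of a knockout and the properties of its clone cannot be told apart, and p values describe the spread between replicate libraries of that clone. The same 3 Huh-7 libraries served as control for both knockouts. The direct comparison between the clones does not use them and tests whether the clones differed.

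Fatty acids enter hepatocytes through transporters, are bound by fatty acid binding protein and are activated to acyl-CoA by long-chain acyl-CoA synthetases. Long-chain acyl groups cross the mitochondrial membranes as carnitine esters, and each turn of the beta-oxidation spiral then runs through dehydrogenation, hydration, a further dehydrogenation and thiolysis, with electrons passing through the electron transfer flavoprotein to the respiratory chain. Peroxisomes shorten very long, branched and bile acid side chains by a parallel spiral that starts with an acyl-CoA oxidase. In fasting liver, the acetyl-CoA that is formed feeds ketone body synthesis, and many genes of these pathways are targets of PPARA, a nuclear receptor that binds DNA together with RXRA at 2 copies of AGGTCA set 1 base apart.

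Promoter sequence was examined for these genes because PPARA and its partners act there. RefSeq promoters (GRCh38.p14, the 250 bases before a RefSeq start of a gene) were matched by symbol for 27 of the 34 genes, and the others were ACAA1, ACOT1, ACOX2, CRAT, DECR1, EHHADH and ETFDH. Both strands were searched for AGGTCANAGGTCA with at most 2 mismatched letters. The motif was found in 3 of 27 promoters (11.1%), those of ACAA2, FABP1 and SLC27A2, and in 903 of 35116 promoters overall (2.57%). For the 27 genes 1 promoter per gene was kept, whereas the shares overall were taken over every promoter listed. With at most 1 mismatch it was found in no promoter of the 27 and in 0.288% of all promoters. A single copy of AGGTCA, exactly matched, was present in 2 of 27 (7.41%, ACSL5 and FABP1) and in 12.1% of all promoters, and in FABP1 it is part of the longer match. A match of letters is a description and not evidence of binding. The sequences shown are those of the 3 genes with a match, chosen after the search, and of SLC27A5, which was the only gene of the 34 called lower in both clones. Capitals mark the match, 2 copies 1 base apart on either strand, and SLC27A5 has none. The FABP1 window is chr2:88128063-88128312 on the minus strand, the SLC27A2 window chr15:50181946-50182195 on the plus strand and the SLC27A5 window chr19:58511993-58512242 on the minus strand. For ACAA2 only the 148 bases nearest the start are given, chr18:49813534-49813681 on the minus strand. Bases further from the start are annotated as untranslated in a transcript with an earlier start. The ACAA2 and SLC27A5 windows lie inside the deposited spans of their genes, and the FABP1 window partly does. The starts used for these genes are therefore not the outermost ones.
FABP1: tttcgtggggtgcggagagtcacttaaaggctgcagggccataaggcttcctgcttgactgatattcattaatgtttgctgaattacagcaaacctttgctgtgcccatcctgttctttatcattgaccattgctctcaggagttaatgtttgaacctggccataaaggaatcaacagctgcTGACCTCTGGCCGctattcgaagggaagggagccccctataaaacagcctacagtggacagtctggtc
SLC27A2: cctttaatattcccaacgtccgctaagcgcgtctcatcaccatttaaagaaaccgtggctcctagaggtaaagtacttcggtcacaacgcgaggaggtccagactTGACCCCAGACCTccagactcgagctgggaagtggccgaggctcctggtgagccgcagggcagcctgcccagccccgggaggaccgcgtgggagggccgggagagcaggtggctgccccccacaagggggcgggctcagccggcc
ACAA2: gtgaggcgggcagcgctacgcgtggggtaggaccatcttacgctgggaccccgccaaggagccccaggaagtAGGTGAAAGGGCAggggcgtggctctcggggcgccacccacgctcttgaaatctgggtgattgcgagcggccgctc
SLC27A5: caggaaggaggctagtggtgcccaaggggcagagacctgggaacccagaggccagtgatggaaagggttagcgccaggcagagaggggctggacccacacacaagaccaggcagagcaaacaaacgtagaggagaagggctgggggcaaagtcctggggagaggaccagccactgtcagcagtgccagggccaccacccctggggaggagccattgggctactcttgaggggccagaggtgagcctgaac
The ACAA2 match runs from base -76 to -64 before the start, the FABP1 match from -68 to -56 and the SLC27A2 match from -145 to -133. In the RNA data these 3 genes did not move together. ACAA2 was higher than in control cells in both clones, FABP1 was higher in Ako-3 cells, and SLC27A2 was lower in Mko-3 cells, with the values given at their steps of the pathway.

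The libraries held 14638727 to 20179760 counts on genes. The targeted genes followed the labels: APOB was 2.57-fold lower in Ako-3 than in Huh-7 cells (log2 fold change -1.36, SE 0.13, adjusted p = 7.1e-05) and MTTP 7.34-fold lower in Mko-3 cells (log2 fold change -2.88, SE 0.065, adjusted p = 9.4e-19). All 10 hepatocyte marker genes had a mean FPKM above 1 in each group, and their summed FPKM ranged from 5256 to 5435 in Huh-7, from 6322 to 6654 in Ako-3 and from 5086 to 5339 in Mko-3 libraries. Of 9 markers of blood, endothelial and stromal cells only PECAM1 was above 1, with a mean of 9.91 FPKM in Huh-7, 13.4 in Ako-3 and 6.53 in Mko-3 cells, and CD68 was at 0 in every library. Transcripts of the mitochondrial genome took 5.52 to 6.17% of counts in Huh-7, 7.06 to 7.40% in Ako-3 and 5.75 to 5.82% in Mko-3 libraries. The part of these differences in the results below was not tested. In RNA of whole cultures, fewer cells that express a gene and less RNA per cell cannot be told apart.

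Between genes, levels were compared on the deposited FPKM scale, which corrects for gene length. In each group 30 of the 34 genes had a mean FPKM above 1, and 22 genes in Huh-7, 24 in Ako-3 and 20 in Mko-3 cells were above 10. FABP1, the liver fatty acid binding protein, had the highest level of the 34 genes, with a mean of 232 FPKM in Huh-7, 264 in Ako-3 and 210.4 in Mko-3 cells. After it in Huh-7 cells came ACSL4 at 86.9 FPKM, HADHA at 85.0, ETFA at 72.4, ACADVL at 52.4 and CRAT at 52.0. The libraries of ACSL4 and HADHA overlapped, as did those of ACADVL and CRAT, while FABP1 stood clear of ACSL4. The carnitine palmitoyltransferases were far apart in this order, with CPT1A at 38.9 FPKM and CPT2 at 3.63. Their deposited lengths are 6565 and 10452 bases, and their means before division by length were 258 and 38.3 CPM.

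At the bottom of the order were ACOT1 at 1.42 FPKM in Huh-7 cells, SLC27A5 at 0.421, BDH1 at 0.120 and CD36 at 0.0173. ACADL, the long-chain acyl-CoA dehydrogenase, had 0 counts in all 9 libraries. Of the 33 pairs of neighbours in the Huh-7 order, 16 overlapped between libraries and 17 did not. FPKM summed over the 4 acyl-CoA synthetases was 154.9 ± 5.44 in Huh-7, 124.1 ± 3.67 in Ako-3 and 105.9 ± 2.71 in Mko-3 libraries (SD, n = 3). For the 4 peroxisomal genes the sums were 73.1 ± 0.827, 86.5 ± 0.179 and 82.8 ± 0.601 in the same order, and for the 19 mitochondrial genes they were 459 ± 18.3, 479.6 ± 5.25 and 425.6 ± 6.77. The plot of FPKM by gene shows the whole range.

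**Figure D1:**
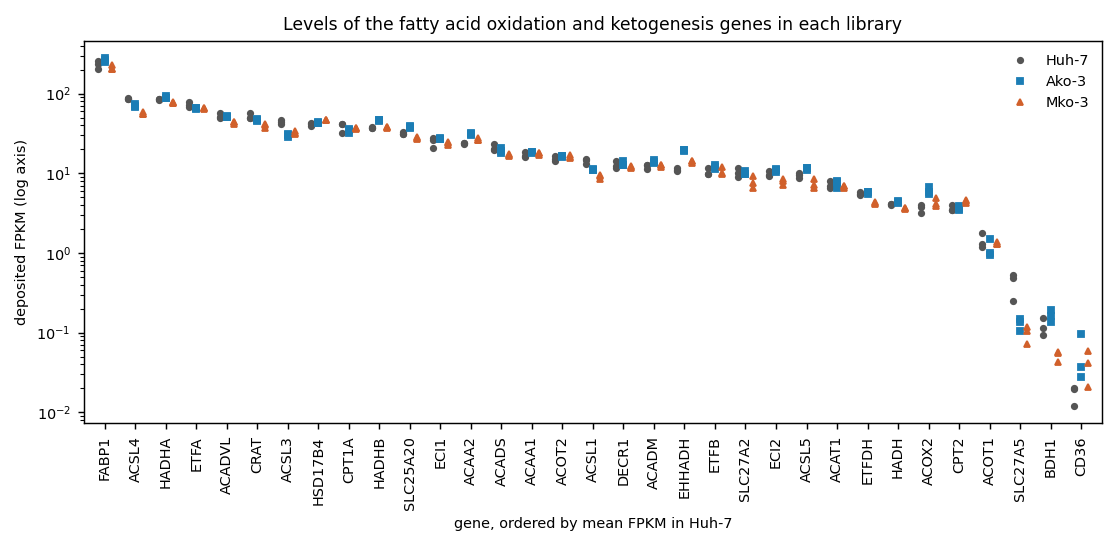
Deposited FPKM (log axis) of 33 genes in each of the 9 libraries, with genes ordered by their mean in Huh-7 cells, circles for Huh-7, squares for Ako-3 and triangles for Mko-3. FABP1 is highest, SLC27A5, BDH1 and CD36 are lowest, and ACADL is left out because it had 0 counts in every library.

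Each gene was then compared between groups. A gene is said below to be higher or lower, or to rise or fall, where its Benjamini-Hochberg adjusted p over all genes tested was at most 0.05 in the quasi-likelihood test of edgeR, and is said to be called where its log2 fold change was also at least 1 in size. Of the 34 genes 32 had enough counts for the test. ACADL and CD36 did not. CD36, a fatty acid translocase, had 0.132 to 0.222 CPM (counts relative to library size, scaled by TMM) in the Huh-7 libraries, 0.305 to 1.07 in the Ako-3 libraries and 0.228 to 0.653 in the Mko-3 libraries.

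In Ako-3 cells, 9 of the 32 genes were higher than in Huh-7 cells, 5 were lower and 18 did not pass the test. Over all 15787 genes tested in this comparison 25.5% were higher and 24.4% lower, and among the 32 the shares were 28.1% and 15.6%. None of the 32 was called higher and 1, SLC27A5, was called lower, while 3.52% and 5.0% of all genes were. The largest increase, 0.79 on the log2 scale for EHHADH, stayed under the threshold of 1, so that edgeR called none of them higher at any p, and DESeq2 called none. The median log2 fold change was 0.06 over the 32 genes and -0.01 over all genes. With upper quartile scaling in place of TMM, 6 genes were higher and 6 lower. In Mko-3 cells, 4 of the 32 genes were higher than in Huh-7 cells, 16 were lower and 12 did not pass. Of all 15745 genes tested 26.9% were higher and 27.1% lower, against 12.5% and 50% of the 32. By edgeR or DESeq2 none of the 32 was called higher, beside 3.82% of all genes by edgeR, the largest log2 fold change being 0.32. The genes called lower were 2, SLC27A5 and BDH1, beside 7.22% of all genes. Here the median was -0.15 over the 32 genes and -0.01 over all.

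Between the clones, 21 of the 32 genes were lower in Mko-3 than in Ako-3 cells, 2 were higher and 9 did not pass. These are 65.6% and 6.25% of the 32 genes, where 20.6% of all 15528 genes tested were lower and 21.1% higher. The median log2 fold change was -0.24 over the 32 genes and 0.00 over all genes, and 27 of the 32 values were below 0 (49.5% of all genes). In 22 of the 32 genes every Mko-3 library was below every Ako-3 library, as in 24.1% of all genes. The differences were mostly small: BDH1 was the only gene of the 32 called lower (3.47% of all genes) and none was called higher by edgeR or DESeq2, beside 2.26% of all genes by edgeR, the largest log2 fold change being 0.30.

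**Figure D2:**
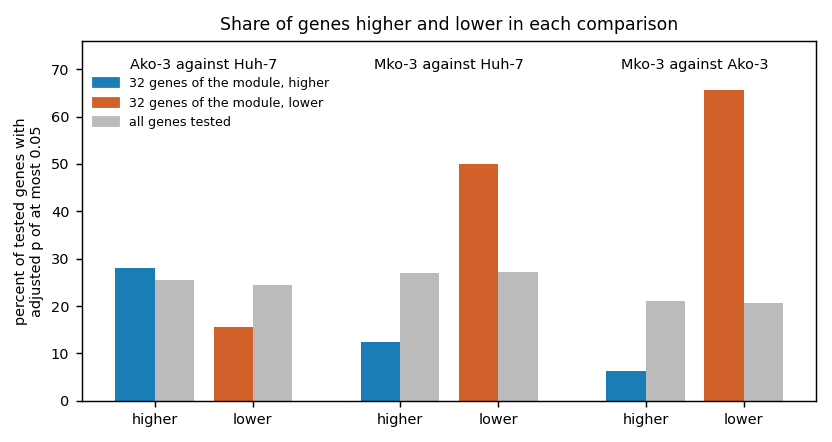
Percent of tested genes with an adjusted p of at most 0.05 in each comparison, for the 32 genes described here (coloured bars, blue higher and orange lower in the first-named cells) and for all genes tested (grey bars). The tallest bar is the 65.6% of the 32 genes that were lower in Mko-3 than in Ako-3 cells, beside 20.6% of all genes.

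By compartment, the 18 tested mitochondrial genes had a median log2 fold change of 0.07 in Ako-3 and -0.09 in Mko-3 cells against Huh-7, and of -0.20 between Mko-3 and Ako-3 cells. In Ako-3 cells 5 of them (27.8%) rose and 1 (5.56%) fell, where 25.5% of all genes rose and 24.4% fell, so that the share that rose was near that of all genes. In Mko-3 cells 2 (11.1%) rose and 8 (44.4%) fell, beside 26.9% and 27.1% of all genes. The 4 peroxisomal genes had medians of 0.41, 0.20 and -0.28 in the same order, and in each clone 2 of them rose and none fell, a count too small to be read against the shares of all genes. Of the 2 that rose in Mko-3 cells, HSD17B4 did not pass with upper quartile scaling. Both genes whose products are found in both organelles, CRAT and ECI2, fell in Mko-3 cells and did not pass the test in Ako-3 cells.

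The first step is uptake and binding. SLC27A5 (ENSG00000083807, chromosome 19, 58479512 to 58512413, minus strand, hg38) encodes a hepatic fatty acid transport protein that also activates bile acids for conjugation. It had 3.92, 2.05 and 4.27 CPM in the Huh-7 libraries, 1.10, 0.866 and 1.22 in the Ako-3 libraries and 0.963, 0.857 and 0.587 in the Mko-3 libraries. Every library of both clones was below every Huh-7 library, and the second Huh-7 library was the lowest control. SLC27A5 was 3.27-fold lower in Ako-3 cells (log2 fold change -1.71, SE 0.30, adjusted p = 8.5e-05) and 4.26-fold lower in Mko-3 cells (log2 fold change -2.09, SE 0.32, adjusted p = 1.1e-05), while the clones overlapped (log2 fold change -0.38, SE 0.38, adjusted p = 0.45). These are low counts, 31 to 77 in the control libraries and 9 to 21 in the clones. The gene overlaps ZNF446 on the other strand, which had a mean of 120.4 counts, and whether reads were counted by strand is not given in the sources used here. ZNF446 itself had log2 fold changes of 0.07 in Ako-3 and -0.25 in Mko-3 cells and did not pass the test in either.

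SLC27A2, a transporter that also activates very long chain fatty acids, had 32.6, 25.1 and 28.6 CPM in the Huh-7 libraries, 28.2, 30.1 and 27.4 in the Ako-3 libraries and 21.5, 26.4 and 18.6 in the Mko-3 libraries. It was 1.31-fold lower in Mko-3 than in Huh-7 cells (log2 fold change -0.39, SE 0.12, adjusted p = 0.012), although the groups overlapped and the difference did not pass without Huh-7 library 1, Mko-3 library 1 or Mko-3 library 3 (adjusted p = 0.053 to 0.085). It was 1.29-fold lower than in Ako-3 cells (log2 fold change -0.37, SE 0.089, adjusted p = 0.00053) without overlap. In Ako-3 cells its log2 fold change was -0.02 (adjusted p = 0.88). FABP1 had 636, 505 and 594 CPM in the Huh-7 libraries, 620.5, 701 and 664 in the Ako-3 libraries and 564, 505 and 505 in the Mko-3 libraries. It was 1.14-fold higher in Ako-3 than in Huh-7 cells at the edge of the threshold (adjusted p = 0.05), with overlapping libraries, and it did not pass with upper quartile scaling (adjusted p = 0.18) or without Huh-7 library 2 or 3 or Ako-3 library 2 or 3 (adjusted p = 0.077 to 0.18). Between the clones FABP1 was 1.26-fold lower in Mko-3 cells (log2 fold change -0.34, SE 0.042, adjusted p = 4e-09), and those libraries did not overlap.

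The 4 long-chain acyl-CoA synthetases, which activate fatty acids for both oxidation and lipid synthesis, changed in both clones. All 4 were lower in Mko-3 than in Huh-7 cells, and in Ako-3 cells 3 were lower and ACSL5 was higher. ACSL1, the main synthetase of liver, had 92.3, 83.6 and 95.5 CPM in the Huh-7 libraries, 69.5, 73.1 and 69.1 in the Ako-3 libraries and 60.1, 54.5 and 58.1 in the Mko-3 libraries. The groups did not overlap and were ordered Huh-7, Ako-3, Mko-3 from highest to lowest. ACSL1 was 1.29-fold lower in Ako-3 cells (log2 fold change -0.37, SE 0.071, adjusted p = 0.00023), 1.59-fold lower in Mko-3 cells (log2 fold change -0.66, SE 0.073, adjusted p = 1.5e-07) and 1.23-fold lower in Mko-3 than in Ako-3 cells (log2 fold change -0.30, SE 0.059, adjusted p = 1.9e-05).

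ACSL4, which prefers arachidonic acid, followed the same order with 557, 558 and 574 CPM in the Huh-7 libraries, 487, 459 and 445 in the Ako-3 libraries and 362, 387 and 359 in the Mko-3 libraries. Its libraries did not overlap between any of the groups. It was 1.22-fold lower in Ako-3 (log2 fold change -0.29, SE 0.058, adjusted p = 0.00035) and 1.54-fold lower in Mko-3 cells (log2 fold change -0.62, SE 0.057, adjusted p = 1.2e-08), and the clones differed by 1.26-fold (log2 fold change -0.33, SE 0.040, adjusted p = 7.5e-11). ACSL3, a synthetase of the endoplasmic reticulum and lipid droplets, had 327, 301 and 343 CPM in the Huh-7 libraries, 225, 227 and 211 in the Ako-3 libraries and 232, 249 and 227 in the Mko-3 libraries. Both clones lay below every control library. ACSL3 was 1.47-fold lower in Ako-3 cells (log2 fold change -0.56, SE 0.064, adjusted p = 4.8e-07) and 1.38-fold lower in Mko-3 cells (log2 fold change -0.47, SE 0.064, adjusted p = 2.8e-06), and the difference between clones did not pass the test (log2 fold change 0.10, SE 0.043, adjusted p = 0.071).

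ACSL5, a synthetase of mitochondria and endoplasmic reticulum, changed in opposite directions. It had 40.4, 37.7 and 43.3 CPM in the Huh-7 libraries, 46.6, 50.6 and 50.6 in the Ako-3 libraries and 36.4, 28.3 and 30.8 in the Mko-3 libraries. Every Ako-3 library was above, and every Mko-3 library below, all Huh-7 libraries. ACSL5 was 1.21-fold higher in Ako-3 cells (log2 fold change 0.27, SE 0.080, adjusted p = 0.0074) and 1.28-fold lower in Mko-3 cells (log2 fold change -0.36, SE 0.094, adjusted p = 0.0028), and the clones differed by 1.55-fold (log2 fold change -0.63, SE 0.073, adjusted p = 1.9e-11), the second largest change among the 32 genes in that comparison. ACSL5 overlaps ZDHHC6 on the other strand, which had log2 fold changes of 0.20 in Ako-3 and 0.22 in Mko-3 cells against Huh-7 and of 0.02 between the clones.

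In the carnitine shuttle, CPT1A, the regulated entry step of mitochondrial oxidation, had 277, 215 and 280.1 CPM in the Huh-7 libraries, 240.2, 231 and 211 in the Ako-3 libraries and 244, 240.0 and 248 in the Mko-3 libraries. The groups overlapped in every comparison, and the log2 fold changes were -0.19 in Ako-3 (adjusted p = 0.095), -0.09 in Mko-3 (adjusted p = 0.36) and 0.10 between the clones (adjusted p = 0.059). None of these passed the test, but the outcome depended on single libraries. Without Huh-7 library 2, the lowest control, CPT1A passed as lower in both clones. Over the fits with 1 library left out, its log2 fold change ran from -0.30 to -0.12 in Ako-3 and from -0.19 to -0.03 in Mko-3 cells. Between the clones it passed as higher in Mko-3 cells without Ako-3 library 1. The next 2 proteins of the shuttle did change with all libraries in the fit, and not in the same way. SLC25A20, the carnitine-acylcarnitine translocase of the inner membrane, had 65.2, 62.0 and 62.9 CPM in the Huh-7 libraries, 79.2, 77.7 and 74.9 in the Ako-3 libraries and 57.0, 53.9 and 55.0 in the Mko-3 libraries. The groups did not overlap, with Ako-3 highest and Mko-3 lowest. SLC25A20 was 1.21-fold higher in Ako-3 (log2 fold change 0.28, SE 0.068, adjusted p = 0.002) and 1.15-fold lower in Mko-3 cells (log2 fold change -0.21, SE 0.071, adjusted p = 0.017), and 1.40-fold lower in Mko-3 than in Ako-3 cells (log2 fold change -0.48, SE 0.057, adjusted p = 4.6e-11). The decrease against Huh-7 cells did not pass without Mko-3 library 2 or 3 (adjusted p = 0.077 to 0.091) or with no filter on low counts (adjusted p = 0.089).

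CPT2, which returns the acyl group to coenzyme A inside the mitochondrion, had 36.1, 41.8 and 37.0 CPM in the Huh-7 libraries, 36.3, 37.3 and 41.1 in the Ako-3 libraries and 48.3, 47.9 and 44.6 in the Mko-3 libraries. The Mko-3 libraries were above all others, while Huh-7 and Ako-3 libraries overlapped. CPT2 was 1.22-fold higher in Mko-3 than in Huh-7 cells (log2 fold change 0.28, SE 0.081, adjusted p = 0.0054) and 1.23-fold higher than in Ako-3 cells (log2 fold change 0.30, SE 0.068, adjusted p = 0.00022). CRAT, the carnitine acetyltransferase, had 218, 192 and 189 CPM in the Huh-7 libraries, 179, 185 and 177 in the Ako-3 libraries and 160.3, 143 and 155 in the Mko-3 libraries. It was 1.32-fold lower in Mko-3 than in Huh-7 cells (log2 fold change -0.40, SE 0.068, adjusted p = 4.1e-05). In Ako-3 cells its log2 fold change of -0.15 did not pass (adjusted p = 0.056), although every Ako-3 library was below every Huh-7 library. That difference passed without Huh-7 library 2 or 3, and with 1 library left out it ran from -0.19 to -0.09. CRAT overlaps PTPA on the other strand, and CPT2 overlaps C1orf123.

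**Figure D3:**
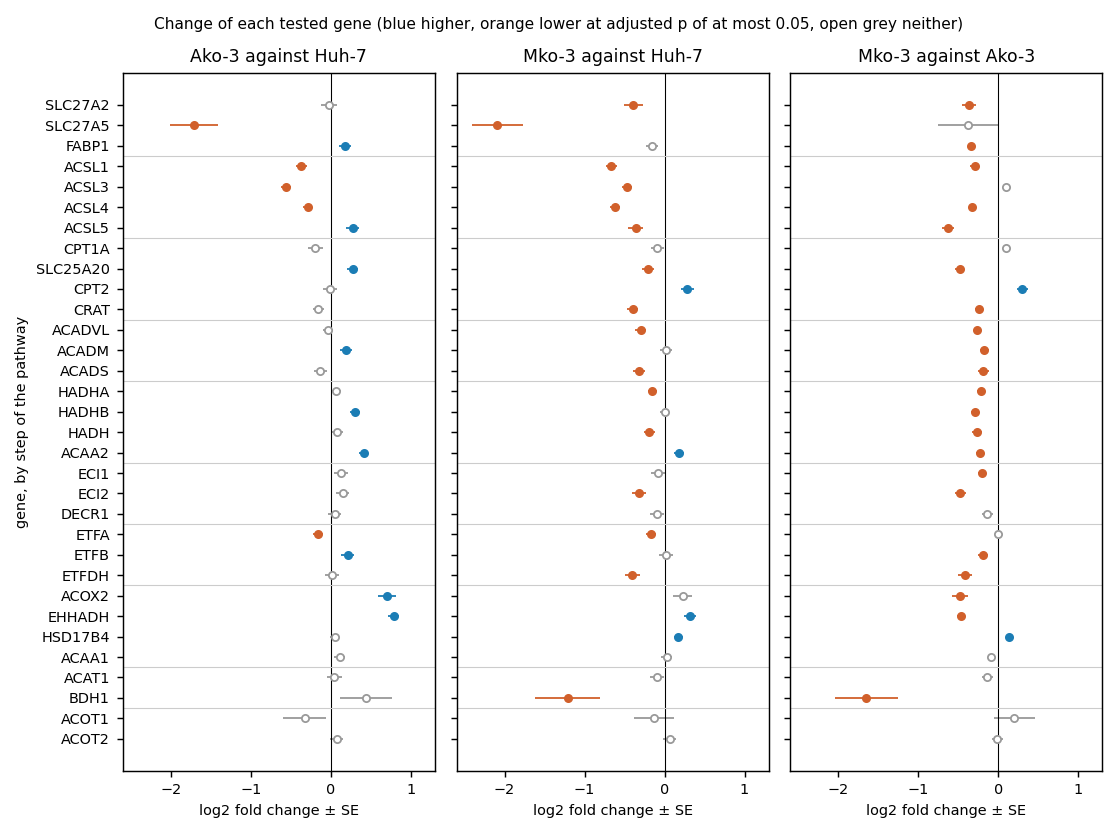
Log2 fold change with its SE (horizontal bars) of the 32 tested genes in the 3 comparisons, in the order of the pathway, with grey lines between its steps. Filled blue points are higher and filled orange points lower at an adjusted p of at most 0.05, open points did not pass, and in the panel for Mko-3 against Ako-3 cells 21 points are orange and 2 are blue.

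The acyl-CoA dehydrogenases open the mitochondrial spiral, each for a range of chain lengths. All 3 tested dehydrogenases were lower in Mko-3 than in Ako-3 cells: ACADVL for very long chains by 1.20-fold, ACADM for medium chains by 1.13-fold and ACADS for short chains by 1.14-fold. Of all genes tested 20.6% were lower, and 3 genes are too few to be read against that share. Against Huh-7 cells, ACADVL (log2 fold change -0.30, adjusted p = 0.00041) and ACADS (-0.32, adjusted p = 0.0016) were lower in Mko-3 cells. ACADM was higher in Ako-3 cells (0.20, adjusted p = 0.034), but it overlaps RABGGTB on the same strand, and the increase did not pass without Huh-7 library 2, Ako-3 library 1 or Ako-3 library 2 (adjusted p = 0.064 to 0.15) or with upper quartile scaling (adjusted p = 0.12). Between the clones, ACADM did not pass without Ako-3 library 2 or Mko-3 library 3 (adjusted p = 0.077 to 0.1), nor ACADS without Ako-3 library 2 or Mko-3 library 2 (adjusted p = 0.061 to 0.17). ACADVL had 278, 243 and 251 CPM in the Huh-7 libraries, 249, 252 and 259 in the Ako-3 libraries and 215, 203 and 214 in the Mko-3 libraries. Its Mko-3 libraries lay below all 6 others, which overlapped with each other.

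Of the genes for the later steps, HADHA and HADHB encode the subunits of the trifunctional protein, HADH the short-chain hydroxyacyl-CoA dehydrogenase and ACAA2 the last thiolase. All 4 were lower in Mko-3 than in Ako-3 cells, by 1.17-fold for HADHA, 1.23-fold for HADHB, 1.21-fold for HADH and 1.17-fold for ACAA2. These 4 genes are also too few to be read against the 20.6% of all genes that were lower. HADHB had 165, 159 and 159 CPM in the Huh-7 libraries, 203, 203 and 194 in the Ako-3 libraries and 162, 164 and 163 in the Mko-3 libraries. Only Ako-3 cells stood apart (log2 fold change 0.30, SE 0.060, adjusted p = 0.00029 against Huh-7). ACAA2 had 118, 123 and 122 CPM in the Huh-7 libraries, 161, 167 and 157 in the Ako-3 libraries and 142, 136 and 135 in the Mko-3 libraries. It rose in both clones without overlap, 1.33-fold in Ako-3 (log2 fold change 0.41, SE 0.061, adjusted p = 1.3e-05) and 1.13-fold in Mko-3 cells (log2 fold change 0.18, SE 0.061, adjusted p = 0.019). The increase of ACAA2 in Mko-3 cells did not pass without Mko-3 library 1 (adjusted p = 0.093) or with upper quartile scaling (adjusted p = 0.13).

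HADHA and HADHB lie head to head on chromosome 2 and overlap, and their subunits work as a complex. Their changes against Huh-7 cells were 0.07 and 0.30 on the log2 scale in Ako-3 cells, where only HADHB passed (adjusted p = 0.33 and 0.00029). In Mko-3 cells they were -0.16 and 0.00, where only HADHA passed (adjusted p = 0.024 and 0.98), and it did not pass when any 1 of the Mko-3 libraries was left out (adjusted p = 0.069 to 0.14). The difference between the changes of these genes was not tested.

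For unsaturated chains, ECI1 and ECI2 are enoyl-CoA isomerases and DECR1 is the dienoyl-CoA reductase. None passed the test in Ako-3 cells against Huh-7. ECI2 had 49.4, 42.2 and 43.8 CPM in the Huh-7 libraries, 50.8, 52.6 and 48.1 in the Ako-3 libraries and 38.9, 37.4 and 32.7 in the Mko-3 libraries. It was lower in Mko-3 cells than in Huh-7 cells (log2 fold change -0.32, SE 0.087, adjusted p = 0.0034) and 1.39-fold lower than in Ako-3 cells (log2 fold change -0.48, SE 0.069, adjusted p = 1.9e-08). ECI1 passed only between the clones, 1.15-fold lower in Mko-3 cells (adjusted p = 0.0011), and DECR1 passed in no comparison, with log2 fold changes of 0.05, -0.09 and -0.14 in Ako-3, in Mko-3 and between the clones.

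The electron transfer flavoprotein takes electrons from the dehydrogenases, and its dehydrogenase, encoded by ETFDH, hands them to ubiquinone. ETFDH had 26.2, 24.5 and 25.1 CPM in the Huh-7 libraries, 26.1, 26.2 and 24.7 in the Ako-3 libraries and 20, 18.6 and 19.3 in the Mko-3 libraries. The Mko-3 libraries were below all others, and ETFDH was 1.32-fold lower than in Huh-7 cells (log2 fold change -0.40, SE 0.093, adjusted p = 0.001) and 1.33-fold lower than in Ako-3 cells (log2 fold change -0.41, SE 0.085, adjusted p = 4.2e-05). ETFDH, with a mean of 406 counts, overlaps PPID (596) and C4orf46 (452) on the other strand, so reads may be shared. The subunit genes changed less. ETFA was lower in both clones, by 1.12-fold in Ako-3 (adjusted p = 0.042) and 1.12-fold in Mko-3 cells (adjusted p = 0.027), and ETFB was 1.16-fold higher in Ako-3 cells (adjusted p = 0.031), with overlapping libraries. These results depended on single libraries. ETFA in Ako-3 cells did not pass when any 1 of its 6 libraries except Huh-7 library 2 was left out (adjusted p = 0.065 to 0.18) or with DESeq2 (adjusted p = 0.055). In Mko-3 cells ETFA did not pass without Huh-7 library 1 or when any 1 of the Mko-3 libraries was left out (adjusted p = 0.085 to 0.12). ETFB in Ako-3 cells did not pass without Huh-7 library 2 or 3 or Ako-3 library 1 or 2 (adjusted p = 0.066 to 0.14).

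The largest increases among the 32 genes against control were those of peroxisomal EHHADH and ACOX2 in Ako-3 cells. EHHADH (ENSG00000113790, chromosome 3, 185190624 to 185281990, minus strand), the bifunctional enzyme of the inducible peroxisomal spiral, had 52.8, 54.9 and 51.4 CPM in the Huh-7 libraries, 90.6, 92.7 and 93.1 in the Ako-3 libraries and 63.4, 68.7 and 68.3 in the Mko-3 libraries. All Ako-3 libraries were above all Mko-3 libraries, and these were above all Huh-7 libraries. EHHADH was 1.73-fold higher in Ako-3 (log2 fold change 0.79, SE 0.068, adjusted p = 1e-08) and 1.25-fold higher in Mko-3 cells (log2 fold change 0.32, SE 0.072, adjusted p = 0.00073), and 1.38-fold lower in Mko-3 than in Ako-3 cells (log2 fold change -0.47, SE 0.054, adjusted p = 2.4e-11). ACOX2 (ENSG00000168306, chromosome 3, 58505136 to 58537319, minus strand), the oxidase for branched chains and bile acid precursors, had 14.8, 15.4 and 12.5 CPM in the Huh-7 libraries, 21.2, 23.0 and 25.9 in the Ako-3 libraries and 15.3, 19.0 and 16.0 in the Mko-3 libraries. It was 1.64-fold higher in Ako-3 cells (log2 fold change 0.71, SE 0.11, adjusted p = 2.6e-05) without overlap. In Mko-3 cells the libraries overlapped with control (log2 fold change 0.23, SE 0.12, adjusted p = 0.11), and the clones differed (log2 fold change -0.48, SE 0.094, adjusted p = 1.8e-05).

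The other peroxisomal genes changed little. HSD17B4, the second bifunctional enzyme, had 421, 451 and 458 CPM in the Huh-7 libraries, 469.6, 457 and 457 in the Ako-3 libraries and 506, 510.3 and 496 in the Mko-3 libraries. It was 1.13-fold higher in Mko-3 than in Huh-7 cells (log2 fold change 0.17, SE 0.057, adjusted p = 0.014) and higher than in Ako-3 cells (log2 fold change 0.13, SE 0.037, adjusted p = 0.0041). The increase of HSD17B4 against Huh-7 cells did not pass without Mko-3 library 1 or 2 (adjusted p = 0.051 to 0.053) or with upper quartile scaling (adjusted p = 0.12). HSD17B4 and CPT2 were the only genes of the 32 that were higher in Mko-3 than in Ako-3 cells. ACAA1, the peroxisomal thiolase, passed in no comparison, with log2 fold changes of 0.11 in Ako-3 and 0.02 in Mko-3 cells and of -0.09 between the clones.

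**Figure D4:**
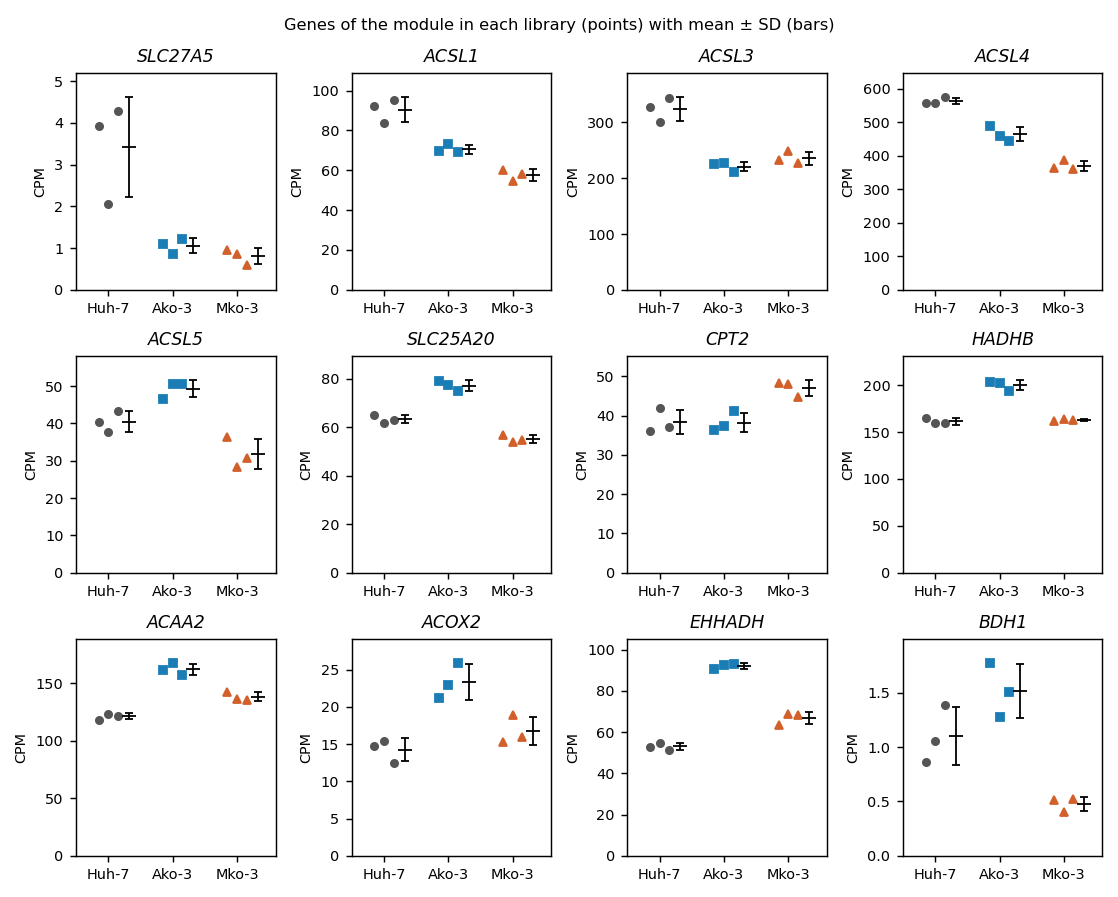
CPM (vertical axes from 0) of 12 genes in each library, with circles for Huh-7, squares for Ako-3 and triangles for Mko-3, and the mean ± SD of 3 libraries beside them. SLC27A5, ACSL1, ACSL3 and ACSL4 are lower in both clones, ACAA2 and EHHADH are higher in both, and ACSL5 and SLC25A20 are above control in Ako-3 and below it in Mko-3 cells.

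In ketone body metabolism, ACAT1, the mitochondrial acetoacetyl-CoA thiolase, passed in no comparison. It had 39.2, 45.5 and 37.5 CPM in the Huh-7 libraries, 37.4, 45.5 and 43.5 in the Ako-3 libraries and 39.4, 39.0 and 36.7 in the Mko-3 libraries. BDH1 (ENSG00000161267, chromosome 3, 197509783 to 197573323, minus strand) encodes the dehydrogenase that interconverts acetoacetate and 3-hydroxybutyrate. It had 0.859, 1.06 and 1.39 CPM in the Huh-7 libraries, 1.77, 1.27 and 1.51 in the Ako-3 libraries and 0.510, 0.400 and 0.522 in the Mko-3 libraries. The Mko-3 libraries were below all others, while Ako-3 and Huh-7 libraries overlapped. BDH1 was 3.14-fold lower in Mko-3 than in Ako-3 cells (log2 fold change -1.65, SE 0.39, adjusted p = 0.00035) and 2.31-fold lower than in Huh-7 cells (log2 fold change -1.21, SE 0.41, adjusted p = 0.016). The counts were only 7 to 9 in Mko-3 and 16 to 29 in the other libraries. The call against Huh-7 was lost with DESeq2 (adjusted p = 0.093), without the third Huh-7 library (log2 fold change -1.0, adjusted p = 0.092) and without the second Mko-3 library (-1.09, adjusted p = 0.07), whereas the call between the clones was kept with DESeq2 and without any 1 of its 6 libraries (log2 fold change -1.77 to -1.53).

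The thioesterases ACOT1 and ACOT2, which release free fatty acids from acyl-CoA, are a near-identical pair on chromosome 14. Over 1480 aligned bases of their longest coding transcripts 97.8% were identical, with an identical run of 553 bases, so that reads may be shared or lost between them and their counts are uncertain. ACOT2 had 34.1 to 40.0 CPM in Huh-7, 38.3 to 40.1 in Ako-3 and 37.5 to 40.9 in Mko-3 libraries. ACOT1 had 2.05 to 3.06 CPM in Huh-7, 1.63 to 2.63 in Ako-3 and 2.22 to 2.38 in Mko-3 libraries. Neither passed the test in any comparison.

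Members on chromosome 4 were examined by position because MTTP lies there. HADH, ETFDH and ACSL1 are on this chromosome, and the other tested genes within 5 Mb of each gave a local median. Around HADH the median log2 fold change over 35 genes was 0.12 in Ako-3 and -0.17 in Mko-3 cells and -0.27 between the clones, beside 0.08, -0.19 and -0.27 for HADH itself. Around ETFDH, over 20 genes, it was 0.04, -0.21 and -0.21, beside 0.01, -0.40 and -0.41 for ETFDH. Around ACSL1 it was -0.03, 0.13 and 0.06, while ACSL1 itself had -0.37, -0.66 and -0.30. Between the clones the neighbours of 4 of the 32 genes had a median beyond 0.2 in size, those of HADH, ETFDH, CPT2 and ETFB. Around CPT2 on chromosome 1 it was 0.33 over 61 genes, beside 0.30 for CPT2, one of the genes higher in Mko-3 than in Ako-3 cells, and around ETFB on chromosome 19 it was -0.21 over 192 genes, beside -0.20 for ETFB. Against Huh-7 cells the neighbours of CPT2 had medians of -0.24 in Ako-3 and 0.03 in Mko-3 cells, beside -0.01 and 0.28 for CPT2. Other genes differed from their neighbours within 5 Mb. Around HSD17B4 on chromosome 5 the medians were -0.36 in Ako-3 and -0.34 in Mko-3 cells, beside 0.05 and 0.17 for HSD17B4, and around EHHADH on chromosome 3 they were -0.11 and -0.27, beside 0.79 and 0.32 for EHHADH. For HSD17B4 this depended on the window. Within 2 Mb its neighbours had medians of 0.23 over 5 genes in Ako-3 and 0.49 over 4 genes in Mko-3 cells. Within 10 Mb the medians were -0.24 and -0.08. The window mattered for others too. Around ACADVL on chromosome 17 the median between the clones was -0.19 within 5 Mb and -0.28 within 2 Mb, beside -0.27 for ACADVL. Around SLC27A5 the medians within 5 Mb were -0.16 in Ako-3 and -0.18 in Mko-3 cells. Within 2 Mb they were -0.40 and -0.28, beside -1.71 and -2.09 for SLC27A5. The part of the neighbourhood in the values of HADH, ETFDH, CPT2, ETFB, ACADVL and SLC27A5 was not tested.

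The rest of the pathway was read from a list of 93 other genes. In Ako-3 cells 80 were tested, of which 21 rose and 20 fell. In Mko-3 cells 20 of 81 rose and 32 fell, and between the clones 18 of 79 were higher and 33 lower in Mko-3 cells. Against these counts, 25.5% and 24.4% of all genes rose and fell in Ako-3, 26.9% and 27.1% in Mko-3 cells, and 21.1% and 20.6% were higher and lower between the clones. Of the 21 tested other peroxisomal genes, 11 were lower in Mko-3 than in Ako-3 cells and 3 were higher. Of the 14 tested other mitochondrial genes, 7 rose and 1 fell in Ako-3 cells, and 5 rose and 2 fell in Mko-3 cells (median log2 fold change 0.11), beside 2 and 8 of the 18 mitochondrial genes among the 32. The difference between these lists was not tested. Between the clones 2 of the 14 were higher and 5 lower in Mko-3 cells. Those that rose in Ako-3 cells included ECHS1, the enoyl-CoA hydratase (log2 fold change 0.59), and MLYCD, malonyl-CoA decarboxylase (0.84).

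Outside the 34 genes, some increases were larger than any among the 32 tested ones. CROT, the peroxisomal carnitine octanoyltransferase, had 7.74, 9.77 and 9.82 CPM in the Huh-7 libraries, 20.2, 21.7 and 22.5 in the Ako-3 libraries and 21.9, 22.6 and 23.5 in the Mko-3 libraries. It was 2.35-fold higher in Ako-3 (log2 fold change 1.23, SE 0.12, adjusted p = 5.5e-08) and 2.47-fold higher in Mko-3 cells (log2 fold change 1.31, SE 0.12, adjusted p = 6.7e-09), and the clones did not differ beyond their spread (log2 fold change 0.07, SE 0.086, adjusted p = 0.52).

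Among other uptake and activation genes, FABP5, a fatty acid binding protein, had 25.2, 30.1 and 24.2 CPM in the Huh-7 libraries, 39.6, 41.9 and 39.4 in the Ako-3 libraries and 55.6, 50.6 and 55.2 in the Mko-3 libraries and was called higher in Mko-3 cells (log2 fold change 1.01, SE 0.089, adjusted p = 5.9e-09). SLC27A1, a fatty acid transport protein, had 7.41, 5.87 and 6.16 CPM in the Huh-7 libraries, 2.50, 3.00 and 3.47 in the Ako-3 libraries and 2.32, 2.00 and 3.26 in the Mko-3 libraries and was called lower in Ako-3 cells (log2 fold change -1.12, SE 0.19, adjusted p = 4.7e-05). ACSM2A, a medium-chain acyl-CoA synthetase, was 2.11-fold lower in Mko-3 cells (log2 fold change -1.08, SE 0.11, adjusted p = 3.8e-08). ACSBG1, another acyl-CoA synthetase, was higher in Mko-3 than in Ako-3 cells (log2 fold change 2.84, SE 0.51, adjusted p = 4e-06) with only 1 to 6 counts in the Ako-3 libraries and 12 to 33 in the Mko-3 libraries.

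Of the regulators, PPARGC1A, a coactivator of PPARA, had 1.67, 1.78 and 2.66 CPM in the Huh-7 libraries, 0.855, 0.713 and 0.695 in the Ako-3 libraries and 0.283, 0.343 and 0.0653 in the Mko-3 libraries. These are few counts, 27 to 48 in Huh-7, 12 to 14 in Ako-3 and 1 to 6 in Mko-3 libraries, and the groups did not overlap. PPARGC1A was 2.72-fold lower in Ako-3 (log2 fold change -1.44, SE 0.33, adjusted p = 0.0011) and lower again in Mko-3 than in Ako-3 cells (log2 fold change -1.64, SE 0.54, adjusted p = 0.01). PPARA itself had 149.6, 153 and 188 CPM in the Huh-7 libraries, 152, 145 and 132 in the Ako-3 libraries and 110.2, 107 and 105 in the Mko-3 libraries. It was 1.54-fold lower in Mko-3 cells (log2 fold change -0.62, SE 0.077, adjusted p = 1e-06) and did not pass in Ako-3 cells (log2 fold change -0.20, SE 0.083, adjusted p = 0.055). HNF4A, a hepatocyte nuclear receptor, was higher in both clones, by 0.70 on the log2 scale in Ako-3 and 0.30 in Mko-3 cells.

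Of 10 tested genes listed as PPARA targets outside oxidation, none rose and 5 (50%) fell in Ako-3 cells, where 25.5% of all genes rose and 24.4% fell. In Mko-3 cells 2 (20%) rose and 5 (50%) fell, beside 26.9% and 27.1% of all genes. PDK4, the kinase that inhibits pyruvate dehydrogenase, had 4.24, 5.48 and 6.22 CPM in the Huh-7 libraries, 2.38, 2.34 and 2.78 in the Ako-3 libraries and 3.51, 3.14 and 2.55 in the Mko-3 libraries and was 2.13-fold lower in Ako-3 cells (log2 fold change -1.09, SE 0.21, adjusted p = 0.00018). TXNIP, a regulator of glucose uptake, had 259.8, 222 and 245 CPM in the Huh-7 libraries, 129, 131 and 128 in the Ako-3 libraries and 103, 108 and 101 in the Mko-3 libraries and was 2.34-fold lower in Mko-3 cells (log2 fold change -1.23, SE 0.067, adjusted p = 4.8e-12). G0S2, an inhibitor of adipose triglyceride lipase, had 6.55, 4.75 and 5.38 CPM in the Huh-7 libraries, 4.15, 4.94 and 4.52 in the Ako-3 libraries and 1.70, 1.09 and 1.04 in the Mko-3 libraries. Only Mko-3 cells stood apart, 4.36-fold below Huh-7 (log2 fold change -2.13, SE 0.24, adjusted p = 2.1e-07) and 3.53-fold below Ako-3 cells (log2 fold change -1.82, SE 0.24, adjusted p = 1.1e-09). FGF21, a fasting hormone, had 15 to 25 counts in Huh-7, 1 to 6 in Ako-3 and 0 to 2 in Mko-3 libraries, and it was called lower in Ako-3 cells (log2 fold change -2.67, SE 0.51, adjusted p = 0.00021).

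**Figure D5:**
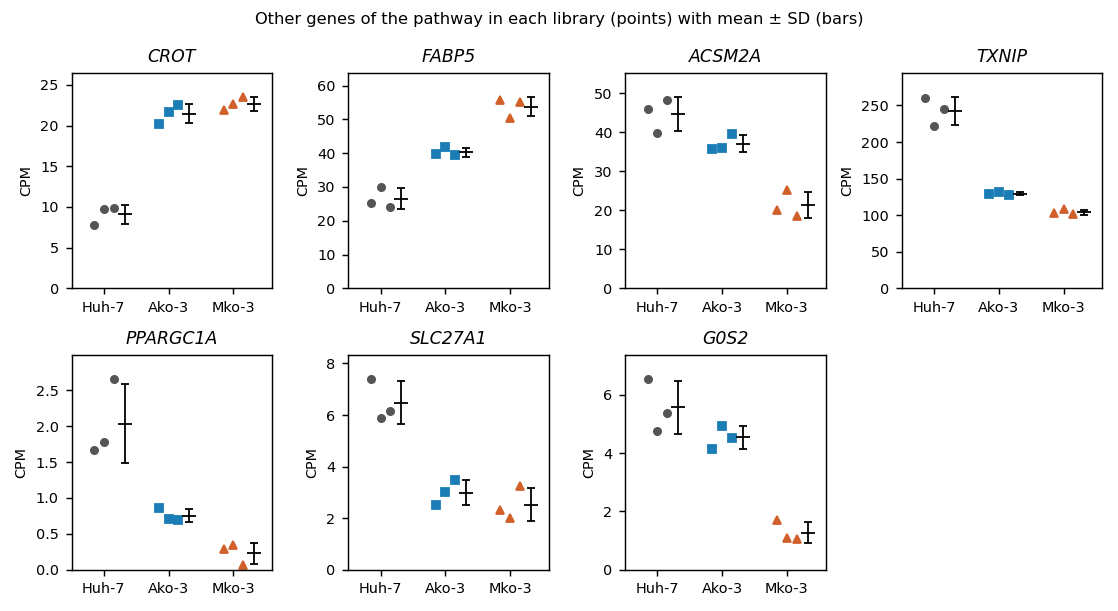
CPM (vertical axes from 0) of 7 genes of the pathway outside the 34, in each library, with circles for Huh-7, squares for Ako-3 and triangles for Mko-3, and the mean ± SD of 3 libraries beside them. CROT is higher and TXNIP, PPARGC1A and SLC27A1 are lower than control in both clones, while G0S2 is low in Mko-3 cells only.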

How the data were processed

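Poly(A) RNA of 9 libraries, 3 each of Huh-7, Ako-3 and Mko-3 cells, was sequenced as paired-end reads. Alignment by the authors used HISAT2 2.0.5 and the hg38 genome, counting used featureCounts 1.5.0-p3 (versions per the submitters' processing notes), and they deposited raw counts and FPKM values of 58735 genes. The annotation and strand setting are not given in the sources used here. From the values, the authors' FPKM are counts divided by the deposited gene length and by a library size proportional to the DESeq2 size factor.

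Counts were tested with edgeR 4.0.16 in R 4.3.3 (TMM factors, genes kept by filterByExpr with min.count 10, two-sided quasi-likelihood F test with the robust option, separate fits of 6 libraries), with adjustment over all genes tested. The SE is the log2 fold change divided by the square root of F. CPM were scaled by TMM over all 9 libraries. At these depths, genes with few counts have wide errors. The scripts were tested on simulated data.

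The genes and lists were chosen with earlier results of these data known. Full statistics are given for genes called in any comparison and for the 8 largest changes past the adjusted p threshold in each. Outside the 34 genes, up to 6 called genes per comparison are described in full by adjusted p, except where a gene is not reported here. The regulators PPARA and HNF4A, and ECHS1 and MLYCD, were named after their values were seen. A group with no more than 3 counts in any library counted as being at the floor, and folds against such a group are left out. Alternatives were DESeq2 1.42.0, other scalings, filters and fits, and leaving out each library.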

Additional observations from a re-analysis of the deposited data

Results flagged for a closer look

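Between the clones, compared directly and without the control libraries, 23 of the 32 tested genes passed the test. In Mko-3 cells 65.6% of the 32 were lower and 6.25% higher, where 20.6% of all genes tested were lower and 21.1% higher. Of the 23 genes, 3 are given again here. BDH1 was the only one of the 32 called between the clones, with a log2 fold change of -1.65 between the clones (adjusted p = 0.00035), a value of -1.21 in Mko-3 and of 0.44 in Ako-3 cells against Huh-7, and counts of 7 to 29 per library.

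ACSL5 differed by -0.63 on the log2 scale (adjusted p = 1.9e-11), being 0.27 above control in Ako-3 and -0.36 from control in Mko-3 cells, with no overlap between the groups. SLC25A20 differed by -0.48 (adjusted p = 4.6e-11), with 0.28 in Ako-3 and -0.21 in Mko-3 cells. Several other genes differed by about as much between the clones, such as ACOX2 (-0.48), ECI2 (-0.48) and EHHADH (-0.47). ACSL5 and SLC25A20 are singled out because only these 2 genes were higher in Ako-3 and lower in Mko-3 than in Huh-7 cells. In both, every Ako-3 library lay above and every Mko-3 library below the control libraries. The libraries of HADHA and HADH were placed the same way, but neither gene passed in Ako-3 cells (adjusted p = 0.33 and 0.36). For SLC25A20 the decrease in Mko-3 against Huh-7 cells did not pass without Mko-3 library 2 or 3 (adjusted p = 0.077 to 0.091). Whether this belongs to the knockouts or to the clones cannot be told apart.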

How the results depend on the processing

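The median log2 fold change of the tested genes kept its sign in every comparison under all alternatives run. No test of a single gene reversed a call. With upper quartile factors that median was 0.00888 in Ako-3 and -0.22 in Mko-3 cells, and 2 genes in place of 4 were higher in Mko-3 cells. All-gene medians moved by less than 0.1 under each scaling. The genes called lower in Mko-3 against Huh-7 cells were 1 with DESeq2 and 0 where at least 10 counts were required in every library, and between the clones they were 0 with that filter, which removed BDH1 and SLC27A5 from these tests. In 1 fit of all 9 libraries 1 gene, CPT2, was higher in Mko-3 than in Ako-3 cells. No promoter held the motif with at most 1 mismatch.

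Leaving out each library in turn gave 11 to 17 genes lower in Mko-3 than in Huh-7 cells (16 with all libraries), and 12 were lower with no filter on low counts. In the same comparison 2 to 5 genes were higher and 1 to 2 called lower, where the lowest values came without Mko-3 library 1 for the first and without Huh-7 library 3 or Mko-3 library 2 for the second. In Ako-3 cells 6 to 11 genes were higher and 4 to 7 lower (9 and 5 with all libraries), with a median of 0.03 to 0.09. Between the clones 18 to 23 genes were lower and 2 to 3 higher, and the median ranged from -0.28 (without Mko-3 library 1) to -0.22. In tests of single genes under all alternatives, 1251 results had the same outcome at the adjusted p threshold as the main fit. These include genes that passed in neither fit. A further 21 results passed only under the alternative, and 68 passed only in the main fit. With 1 library left out, the genes that passed only then in Ako-3 against Huh-7 cells were CPT1A, CRAT, ECI1, ECI2 and ACAA1. In Mko-3 against Huh-7 cells they were FABP1, CPT1A, ECI1 and ACOX2, and between the clones ACSL3, CPT1A, DECR1 and ACAT1.

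Same-numbered libraries did not vary together (r between -0.12 and 0.10), and not every library correlated best with its own number, so that the replicate numbers are names only. With the replicate block, the 32 genes split into 7 up and 4 down for Ako-3 against Huh-7, 4 and 17 for Mko-3 against Huh-7, and 3 and 21 between the clones. At the same adjusted p threshold alone, the counts of all genes were 7397, 8562 and 6612 with the block, against 7880, 8509 and 6462 without it. The counts of all genes called, which also need a log2 fold change of at least 1 in size, were 1336, 1730 and 899 with the block, against 1345, 1739 and 890 without it. With the filter of 10 counts in every library they were 841, 1113 and 511. Where counts are few, as for BDH1 and SLC27A5, depth limits the precision.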
